A study of Homo sapiens with 12 samples.

Results

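The exons described here were near-constitutive in untreated cells and had a length that is not a multiple of 3 nt, so that leaving one out shifts the reading frame of what follows. They were selected on their inclusion in MEC1 cells with wild-type (WT) SF3B1 in DMSO. An exon was a member when its length lay between 28 and 248 nt, its mean inclusion in the 3 WT DMSO samples was 95% or more, and it had at least 20 inclusion plus exclusion reads in each of the 12 samples. The rule found 43625 exons in 7994 genes, of 223565 exon events in the table and of 103335 exon events with that many reads. By the same rule 26651 exons had a length that is a multiple of 3 and keep the frame. The other 33059 exon events with enough reads failed the rule on level or length.

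MEC1 is an established human B cell line from chronic lymphocytic leukemia. The 12 samples formed 4 groups of 3: SF3B1 K700E with 75 nM H3B-8800 for 6 h, K700E with DMSO for 6 h, WT with H3B-8800, and WT with DMSO. The K700E samples were 3 edited clones (41, 38 and 15b), which carried the K700E change and a second base change in SF3B1. The labels name no edit for WT replicates 1 and 2. The WT samples numbered 3 came from an edited clone (34b) with that second change alone, so genotype and cloning cannot be fully told apart. Every group shared the MEC1 background, poly(A) selection and a stranded library.

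A constitutive exon is joined into nearly every transcript of its gene. Its 3' splice site is found through the branch point, which the SF3B complex with its SF3B1 subunit helps to recognise, and H3B-8800 is a small molecule that binds this complex and modulates splicing. When an exon whose length is not a multiple of the codon length is skipped, translation usually meets a premature stop codon, and a stop well upstream of the last exon junction marks a transcript for nonsense-mediated decay. A decayed transcript leaves few reads, so inclusion levels describe the transcripts that were present.

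In the K700E clones, 7467 of the 43625 exons (17.1%) were lower with H3B-8800 than with DMSO by 10 points or more at an adjusted p under 0.05. Among the members tested this was 36.9%, near the 37.3% of all tested exons of the table. A further 23280 (53.4%) changed by less than 1 point. The exons with lower inclusion lay in 3692 of the 7994 genes (46.2%), and no such share of genes was computed over all tested exons. Examples with large drops were the signalling genes PTPN6, CHUK and NFKB1, the repair genes RAD54L and LIG3, and the cell cycle genes PLK4 and CDC16. By gene list, 15.7% of members were called lower for B cell receptor signalling and 17.1% for the list with NF-kappaB genes. The share was 15.9% for cell cycle and 21.6% for repair, against 17.1% of all members, with untested members counted as not called. Between genotypes under the drug, 5 of the 20212 tested members were higher and 5 lower in K700E, against 0.0377% and 0.0314% of all tested exons. Those genotype calls were unstable when single libraries were left out.

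The sequences of 8 exons show what was skipped and what reading frame resulted. MOSPD2, DUSP11 and NCAPD3 were among the 10 exons with the largest drops, RIPK1, BIRC6, CHUK and an exon of PTPN6 were the large drops of their pathways, and a second PTPN6 exon was included at 100% throughout. Each is read 5′ to 3′ on the gene's strand from GENCODE v29 transcripts (GRCh38), starting at a codon 15 to 17 nt before the exon. In the line marked included, capitals are the exon between its neighbours in lower case. In the line marked skipped, the neighbours are joined and capitals are the first stop codon in the frame that results.
MOSPD2 included: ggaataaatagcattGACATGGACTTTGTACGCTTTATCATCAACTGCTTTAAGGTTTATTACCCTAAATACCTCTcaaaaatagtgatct
MOSPD2 skipped: ggaataaatagcattcaaaaaTAG
DUSP11 included: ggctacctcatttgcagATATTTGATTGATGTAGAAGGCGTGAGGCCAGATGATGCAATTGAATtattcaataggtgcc
DUSP11 skipped: ggctacctcatttgcagtattcaaTAG
NCAPD3 included: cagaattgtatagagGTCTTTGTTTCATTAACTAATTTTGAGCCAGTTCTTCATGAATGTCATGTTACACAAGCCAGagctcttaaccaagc
NCAPD3 skipped: cagaattgtatagagagctctTAA
RIPK1 included: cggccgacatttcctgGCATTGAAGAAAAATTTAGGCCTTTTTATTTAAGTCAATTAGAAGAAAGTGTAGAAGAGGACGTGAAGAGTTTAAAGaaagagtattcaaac
RIPK1 skipped: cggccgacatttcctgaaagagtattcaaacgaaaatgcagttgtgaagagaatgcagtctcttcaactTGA
BIRC6 included: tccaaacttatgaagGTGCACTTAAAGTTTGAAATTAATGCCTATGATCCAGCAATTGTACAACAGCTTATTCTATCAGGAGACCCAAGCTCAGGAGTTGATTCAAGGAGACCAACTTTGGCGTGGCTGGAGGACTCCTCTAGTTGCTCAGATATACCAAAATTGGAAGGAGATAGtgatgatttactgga
BIRC6 skipped: tccaaacttatgaagTGA
CHUK included: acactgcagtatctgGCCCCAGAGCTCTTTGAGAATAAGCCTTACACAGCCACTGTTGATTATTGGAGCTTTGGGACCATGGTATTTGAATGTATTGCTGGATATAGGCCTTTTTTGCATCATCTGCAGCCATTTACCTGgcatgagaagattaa
CHUK skipped: acactgcagtatctggcaTGA
PTPN6 exon 11 included: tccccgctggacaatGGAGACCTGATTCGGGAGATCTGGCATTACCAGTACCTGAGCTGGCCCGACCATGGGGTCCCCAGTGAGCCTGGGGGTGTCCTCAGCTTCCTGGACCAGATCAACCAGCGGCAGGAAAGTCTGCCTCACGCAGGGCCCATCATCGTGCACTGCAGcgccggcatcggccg
PTPN6 exon 11 skipped: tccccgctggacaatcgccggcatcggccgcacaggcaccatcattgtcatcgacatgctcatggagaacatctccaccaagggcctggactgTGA
PTPN6 exon 8 included: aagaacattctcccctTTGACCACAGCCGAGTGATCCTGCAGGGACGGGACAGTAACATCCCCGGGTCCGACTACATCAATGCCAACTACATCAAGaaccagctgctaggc
PTPN6 exon 8 skipped: aagaacattctccccTAA

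All 8 are coding exons, and in each skipped form the stop stood more than 50 nt before the last exon junction. The MOSPD2 exon is the 61 nt exon 6 of 15 at chrX:14900575-14900635 on the plus strand, and the new stop ended 9 nt past the new junction. The DUSP11 exon is the 47 nt exon 6 of 9 at chr2:73767161-73767207 on the minus strand, with the stop 10 nt past the junction. The NCAPD3 exon is the 62 nt exon 6 of 35 at chr11:134209145-134209206 on the minus strand, with the stop 9 nt past the junction. In these 3 genes the skipped frame thus closed almost at once. The RIPK1 exon is the 77 nt exon 6 of 10 at chr6:3089581-3089657 (plus), with the stop 56 nt past the junction. The BIRC6 exon is the 161 nt exon 8 of 74 at chr2:32401463-32401623 (plus), where the next exon itself begins with the stop. The CHUK exon is the 125 nt exon 7 of 21 at chr10:100219008-100219132 (minus), with the stop 6 nt past the junction. That stop came after 25.4% of the normal coding length. The 2 PTPN6 exons lie in the same transcript: exon 11 of 16 has 155 nt at chr12:6957919-6958073 and exon 8 has 80 nt at chr12:6956142-6956221, both on the plus strand. Skipping exon 11 gave a stop 81 nt past the junction, and skipping exon 8 would give one 2 nt past it.

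Over all members, 37989 (87.1%) matched an annotated coding exon, 1572 a partly coding one, 368 an untranslated one and 403 an exon of a noncoding transcript. The other 3293 (7.55%) matched no exon in the annotation. The skipped frame was read for 37920 coding exons. It met a stop more than 50 nt before the last junction in 32973 (87.0%), an earlier stop at a later position in 3880 (10.2%), a stop beyond the normal one in 958 (2.53%) and no stop in 109 (0.287%). The new stop ended a median of 35 nt past the junction, with quartiles at 15 and 75 nt. Of 23570 frame-keeping exons read the same way, 23438 (99.4%) kept the normal stop. Lengths that leave 1 and 2 bases over were about equally frequent, with 21893 and 21732 exons, and the median length was 115 nt, against 117 nt for frame-keeping exons.

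Reads over annotated exon junctions numbered 45840233 to 56676172 per sample, and a member had a median of 290 to 323 reads in the K700E H3B-8800 samples, 427 to 509 in K700E DMSO, 278 to 300 in WT H3B-8800 and 413 to 466 in WT DMSO. The B cell markers fitted the label: 12 of 12 had a mean of 50 reads or more, and their sum lay between 4456 and 7473 on a reads-per-million scale of junction reads. The summed T and NK cell markers lay between 0.79 and 5.04 and the myeloid markers between 0.39 and 1.74 on that scale. Of 10 fibroblast and epithelial markers, 5 had 50 reads or more, and the sum lay between 18.1 and 29.5.

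Inclusion of the members was then set against the drug. In the K700E samples with H3B-8800 the mean inclusion over the 43625 exons was 93.6%, 93.7% and 94.1%, against 99.45%, 99.47% and 99.36% with DMSO. The WT samples had 93.1%, 93.6% and 93.4% with H3B-8800 and 99.47%, 99.49% and 99.49% with DMSO, which chose the members. The treated and untreated samples did not overlap in either genotype. The difference in K700E was -5.64 points, with group means of 93.8% ± 0.249 and 99.4% ± 0.0596 (SD, n = 3 each). The exact two-sided permutation test gave p = 0.1, its lower limit for groups of 3. The median moved far less, to 99.2% ± 0.0493 with H3B-8800 against 100% in every DMSO sample of K700E (exact p = 0.1). The 10% of exons with the lowest inclusion lay at or under 79.8% ± 0.842 with H3B-8800 and 98.1% ± 0.199 with DMSO in K700E. The fall of the mean was thus carried by a minority of exons.

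**Figure D1:**
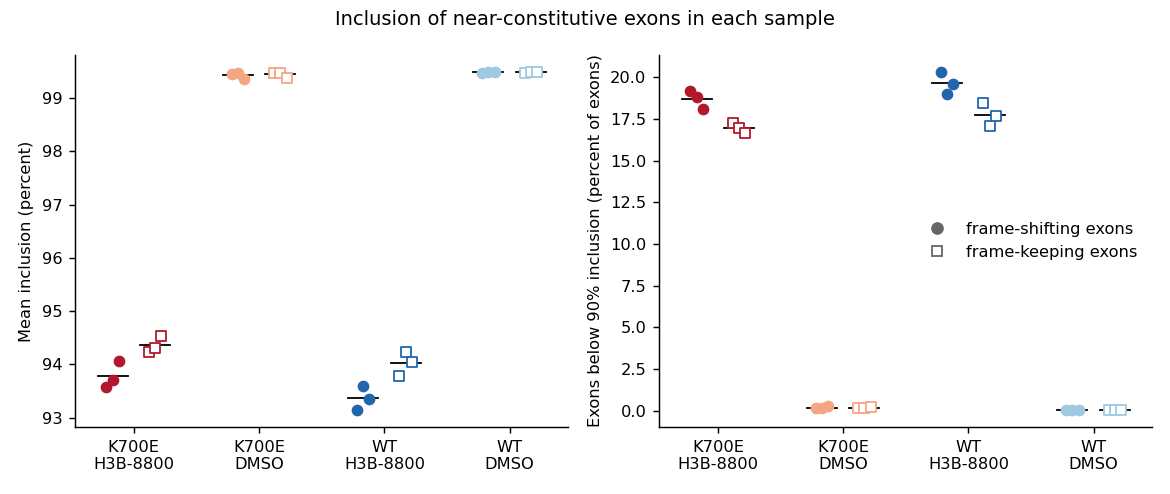
The left panel plots the mean inclusion (percent) and the right panel the share of exons below 90% inclusion (percent of exons) in each of the 12 samples, for frame-shifting (filled circles) and frame-keeping exons (open squares), with group means as lines; the left axis does not start at 0. The H3B-8800 samples of both genotypes lie near 93% to 95% and their DMSO samples above 99%, and frame-shifting exons lie below frame-keeping exons in each treated sample.

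In K700E with H3B-8800, 19.2%, 18.8% and 18.1% of the members lay below 90% inclusion, against 0.128%, 0.138% and 0.289% with DMSO. WT samples with H3B-8800 had 20.3%, 19.03% and 19.6%. Below 50% were 1.86% ± 0.181 of the members in K700E with H3B-8800 and 0% with DMSO. K700E DMSO replicate 3 had the highest share of the untreated samples and still stood far under every treated one. Under the drug the genotypes lay close together: K700E exceeded WT by 0.423 points in the mean, with 93.8% ± 0.249 and 93.4% ± 0.232 (exact p = 0.2), and fell short of it by 0.953 points in the share below 90% (exact p = 0.2).

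Single exons were tested with limma on the log2 ratio of inclusion to exclusion reads in the 9 samples that the rule did not use. An exon was called when its Benjamini-Hochberg p, adjusted across the 113446 events tested, was under 0.05 and the group means lay 10 points or more apart. Only events with a mean inclusion between 1% and 99% were tested, and the 23413 members above 99% could not reach 10 points and count as not called. Of all members, 7467 were called lower, which is 36.9% of the 20212 tested members. The same call fell on 37.3% of all tested exons, so the members stood near the background. Of the members, 0 were called higher, against 0.41% of all tested exons. Nothing is read from that 0, since only 38 members averaged 90% or less in K700E with DMSO and the others had no room to rise by 10 points. At an adjusted p under 0.05 and any size, limma put 37 members higher and 17272 lower. For counts at any size no share over all tested exons was computed, so no trait of the members is read from them. At an unadjusted p under 0.05 limma put 51 members higher, none of them by 10 points, and the largest rise was 7.78 points. Without K700E DMSO replicate 2, 1 member was called higher, a 37 nt exon of NDUFS7 with 96.2%, 100% and 91.7% in K700E with H3B-8800 and 83.2%, 100% and 83.1% with DMSO. Without K700E DMSO replicate 3 it was 1 exon of IQCH-AS1. Both were named after their values were seen.

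The size of the drops was spread widely. A drop of at least 20 points was found in 4011 members, of at least 30 points in 2245 (5.15%), of at least 50 points in 639 (1.46%) and of at least 70 points in 87. In 749 members the mean with H3B-8800 was under 50%, and in 22091 it was 99% or more. All 3 treated K700E samples lay below all 3 untreated ones in 18964 members (43.5%). For this count and the counts of drops by size no share over all tested exons was computed, so no trait of the members is read from them. In WT, where the DMSO samples chose the members and no test is given, 7961 members (18.2%) dropped by 10 points or more. Of the 7485 K700E drops of that size, 6869 were also drops of that size in WT, which is 91.8% of the K700E set and 86.3% of the WT set. With DMSO, 3 members lay 10 points or more lower in K700E than in WT, named here after their values were seen and given without a test: exons of ANKRD37, with means of 85.1% in K700E and 95.2% in WT, TCTN1, with 85.2% and 95.4%, and LRRFIP1, with 86.6% and 98.9%.

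The 10 exons with the largest called drops, 1 per gene, fell to between 8.78% and 21.3% in K700E with H3B-8800. The DUSP11 exon shown above, of an RNA phosphatase, had 10.8%, 13.8% and 11.6% with H3B-8800 and 94.7%, 95.8% and 92.9% with DMSO, a difference of -82.4 points (adjusted p = 8.19e-08). The NCAPD3 exon, of a condensin II subunit that compacts chromosomes, had 10.9%, 16.02% and 18.9% with H3B-8800 and 95.8%, 93.9% and 94.8% with DMSO (-79.5 points, adjusted p = 1.67e-07). With the drug most junction reads at both exons joined the neighbours directly, and treated and untreated samples lay far apart. MOSPD2, which encodes a membrane tether of the endoplasmic reticulum, had 11.96%, 5.25% and 9.12% with H3B-8800 and 98.95%, 95.4% and 98.45% with DMSO in K700E (adjusted p = 7.29e-07). MARCH6, a ubiquitin ligase of the endoplasmic reticulum, had a 52 nt exon 7 of 23 (chr5:10397293-10397344) at 12.2%, 13.4% and 13.9% with H3B-8800 against 98.9%, 97.5% and 97.5% with DMSO.

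RAB14, a small GTPase of endosomal transport, had a 59 nt, partly coding exon 2 (chr9:121193361-121193419) at 20.96%, 14.99% and 20.7% with H3B-8800 and 98.6%, 99.4% and 98.3% with DMSO. UBR2, a ubiquitin ligase of the N-degron pathway, had its 64 nt exon 20 of 47 (chr6:42644473-42644536) at 16.7%, 20.6% and 22.4% with H3B-8800 and 98.3%, 99.03% and 99.1% with DMSO. KAT6B, a histone acetyltransferase, had its 82 nt exon 6 of 18 (chr10:74970020-74970101) at 13.9%, 18.4% and 31.6% with H3B-8800 and 100% in every K700E DMSO sample. None of these treated and untreated groups overlapped. UVSSA, a factor of transcription-coupled repair, averaged 17.04% ± 4.74 with H3B-8800 and 98.8% ± 2.14 with DMSO, LOXL3, of the lysyl oxidase family, 15.8% ± 8.02 and 96.3% ± 3.22, and PROSER1 18.7% ± 1.41 and 97.4% ± 1.34. The UVSSA and LOXL3 values rest on as few as 25 and 24 reads in a treated K700E sample, and the other 8 exons on 50 or more. The adjusted p of the 10 exons was at most 6.18e-06.

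**Figure D2:**
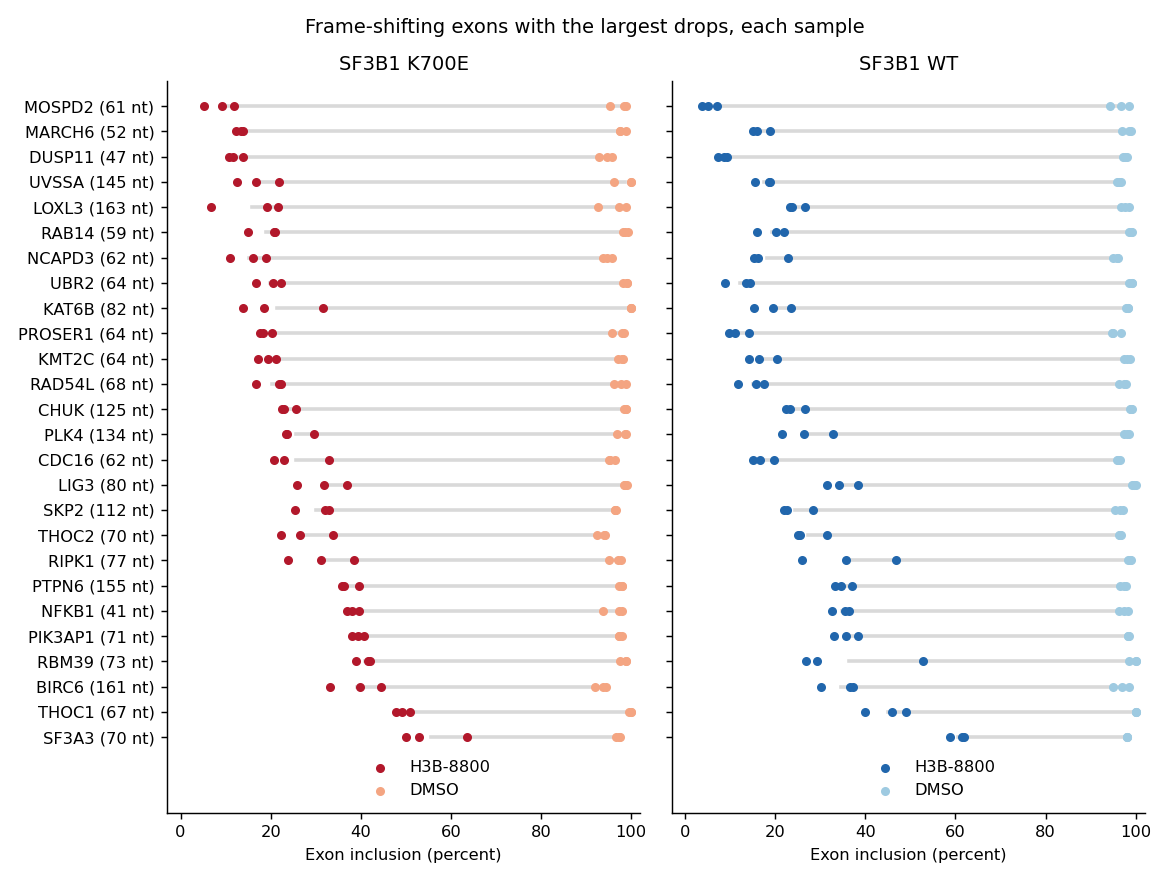
Inclusion (percent) of the frame-shifting exons named for the largest drops overall or in a gene list, 1 row per exon with its length, in each of the 3 H3B-8800 samples (dark) and the 3 DMSO samples (light) of K700E (left) and WT (right); grey lines join the group means. In each row the treated samples lie left of the untreated ones, from 8.78% for MOSPD2 to 55.5% for SF3A3 in treated K700E.

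At the other end, the members with the most reads that stayed at 95% or more were exons of ACTB, RPL11, GAPDH, ENO1, CD74 and HNRNPA2B1, which encode a cytoskeletal actin, a ribosomal protein, 2 enzymes of glycolysis, the invariant chain of antigen presentation and an RNA-binding protein. The 182 nt exon 5 of ACTB was at 100% in all 12 samples, with 62801 reads or more in each treated K700E sample, which allows a skipped share of up to 0.00478% (3 reads; counting error only). The CD74 exon of 88 nt had 99.3%, 99.2% and 99.2% in K700E with H3B-8800 and 99.54%, 99.51% and 99.51% in K700E with DMSO, a difference of -0.283 points. In RPL11, GAPDH, ENO1 and HNRNPA2B1 the treated K700E means lay between 99.86% and 99.99% and within 0.127 points of DMSO. These exons were picked for staying at 95% or more, so their levels are a description. Genes such as ACTB, GAPDH and RPL11 have processed pseudogenes, but a junction read across an intron-less copy looks like inclusion, so these levels are uncertain in that respect.

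Members were next counted by pathway, where members that were not tested count as not called. Among B cell receptor signalling genes, 39 of 248 members (15.7%) were called lower, and the median change was -0.61 points, against -0.69 points over all members. PTPN6 encodes SHP-1, a phosphatase that dampens antigen receptor signals. Its exon 11 had 39.5%, 36.3% and 35.9% in K700E with H3B-8800 and 97.9%, 98.05% and 97.4% with DMSO (-60.6 points, adjusted p = 2.88e-08). Its exon 8 was at 100% in all 12 samples, with 2549 reads or more in treated K700E, which allows up to 0.118% skipping. The 2 exons of a single transcript thus stood far apart under the same drug. PIK3AP1, an adaptor that links the B cell co-receptor to PI3 kinase, had its 71 nt exon 15 of 17 (chr10:96603979-96604049) at 40.8%, 38.2% and 39.5% with H3B-8800 and 97.3%, 97.95% and 97.3% with DMSO (-58.1 points, adjusted p = 3.94e-08).

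Among genes of NF-kappaB and Toll-like receptor signalling, 31 of 181 members (17.1%) were called lower, with a median of -0.53 points. CHUK encodes a catalytic subunit of the IkappaB kinase, and its exon 7 had 22.5%, 25.5% and 22.9% in K700E with H3B-8800 and 98.9%, 98.4% and 98.8% with DMSO (-75.0 points, adjusted p = 3.77e-08). NFKB1 encodes a subunit of NF-kappaB itself, and its 41 nt exon 4 of 24 (chr4:102533845-102533885) had 39.6%, 38.1% and 37.0% with H3B-8800 and 97.2%, 98.04% and 93.7% with DMSO (-58.1 points, adjusted p = 1.47e-06). The treated samples lay below 40% at both exons. The 115 nt exon 6 of IRAK1, a kinase of Toll-like receptor signalling, was at 100% in every sample.

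Among apoptosis regulators, 28 of 121 members (23.1%) were called lower, in 14 of 24 genes with members, with a median of -0.997 points. RIPK1, a kinase of death receptor signalling, had its exon 6 at 31.2%, 23.9% and 38.5% with H3B-8800 and 97.9%, 97.1% and 95.1% with DMSO in K700E (-65.5 points, adjusted p = 2.9e-06). BIRC6, a giant inhibitor of apoptosis with ubiquitin ligase activity, had its exon 8 at 39.9%, 44.5% and 33.1% with H3B-8800 and 94.5%, 92.0% and 93.8% with DMSO (-54.3 points, adjusted p = 1.62e-06). The groups did not overlap at either exon. The 109 nt exon 9 of AIFM1, a mitochondrial flavoprotein, was at 100% in all 6 K700E samples.

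Genes of DNA damage response and repair had 118 of 547 members (21.6%) called lower, with a median of -0.99 points and 14 drops of 50 points or more. RAD54L, a motor of homologous recombination, had a 68 nt exon that matches no annotated exon (chr1:46260859-46260926) at 16.8%, 21.8% and 22.2% in K700E with H3B-8800 and 97.7%, 98.8% and 96.2% with DMSO (-77.3 points, adjusted p = 3.03e-07). LIG3, a DNA ligase of the nucleus and mitochondria, had its 80 nt exon 11 of 20 at 25.9%, 31.9% and 36.9% with H3B-8800 and 98.8%, 99.04% and 98.4% with DMSO (-67.2 points). Every treated sample of both exons lay far under its untreated counterparts. XRCC5, a Ku subunit of end joining, had a 115 nt exon 9 at 100% ± 0.017 in both K700E groups.

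Cell cycle and mitosis genes had 86 of 542 members (15.9%) called lower, with a median of -0.51 points. PLK4, the kinase of centriole duplication, had its 134 nt exon 11 of 16 (chr4:127893285-127893418) at 23.5%, 23.6% and 29.6% with H3B-8800 and 98.5%, 98.9% and 96.9% with DMSO in K700E (-72.5 points, adjusted p = 3.17e-07). CDC16, a subunit of the anaphase-promoting complex, had its 62 nt exon 15 of 19 (chr13:114261887-114261948) at 20.9%, 22.98% and 32.9% with H3B-8800 and 96.5%, 95.4% and 95.1% with DMSO (-70.1 points). No treated sample of either exon reached 35%. The 226 nt exon 14 of SMC4, a condensin subunit, was at 100% in all 6 K700E samples.

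Chromatin regulators had 118 of 685 members (17.2%) and ubiquitin ligases with deubiquitinases 108 of 656 (16.5%) called lower, with medians of -0.39 and -0.61 points. KMT2C, a histone methyltransferase with near-identical gene copies that could share reads, had its 64 nt exon 41 of 59 at 19.5%, 17.1% and 21.1% with H3B-8800 and 97.1%, 98.1% and 97.98% with DMSO in K700E (-78.5 points). SKP2, a substrate receptor of the SCF ubiquitin ligase, had its 112 nt exon 3 of 10 at 25.4%, 32.04% and 32.9% with H3B-8800 and 96.4%, 96.8% and 96.4% with DMSO (-66.4 points). Each of these stood beside members that did not move in the same lists: SMARCB1 of the BAF remodelling complex and DDB1 of CUL4 ubiquitin ligases had exons at 100% in all 12 samples.

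Nonsense-mediated decay and RNA export genes had 33 of 244 members (13.5%) called lower, with a median of -0.38 points. THOC2 and THOC1, subunits of the THO export complex, had a 70 nt exon 35 of 39 at 27.5% ± 5.86 and a 67 nt exon 13 of 21 at 49.3% ± 1.58 in K700E with H3B-8800, against 93.6% ± 1.01 and 99.86% ± 0.248 with DMSO. ALYREF, an export adaptor, had its exon 3 at 100% in all 12 samples. Of 389 members in spliceosome and splicing regulator genes, 112 were tested, against 20212 of 43625 over all members. Untested members count as not called. In these genes 35 of the 389 members (8.997%) were called lower, with a median of -0.18 points and 1 drop of 50 points or more. That drop was at a 73 nt exon of RBM39, a splicing regulator, in a noncoding transcript, with 40.9% ± 1.76 with H3B-8800 and 98.5% ± 0.774 with DMSO. SF3A3, a subunit of the U2 particle that SF3B1 also belongs to, had its 70 nt exon 12 of 17 at 52.97%, 50.1% and 63.5% with H3B-8800 and 97.6%, 97.4% and 96.7% with DMSO in K700E (-41.7 points, adjusted p = 2.26e-07). U2AF2, which binds the polypyrimidine tract, had its exon 7 at 100% in all 12 samples with at least 6403 reads in each treated K700E sample.

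**Figure D3:**
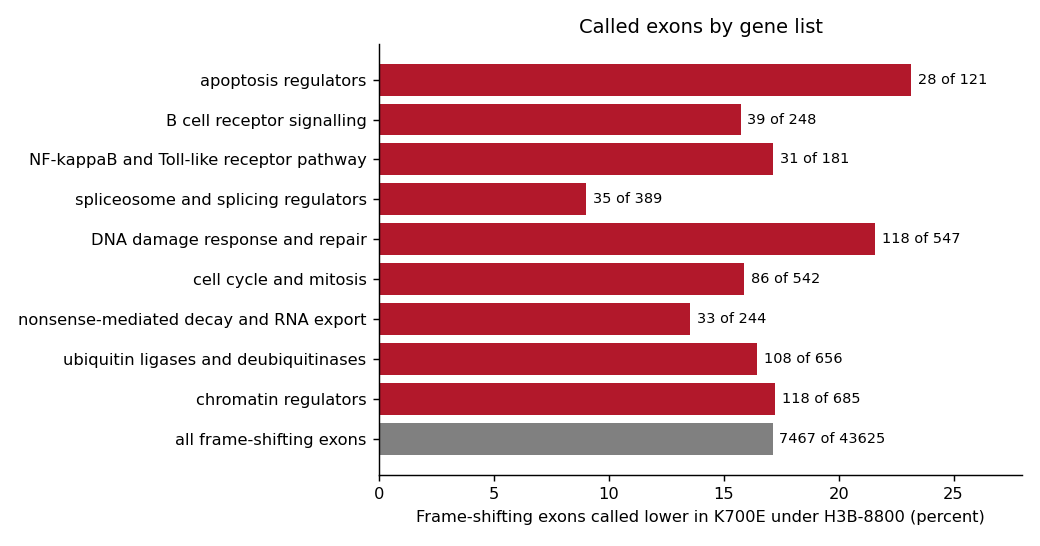
Share (percent) of frame-shifting near-constitutive exons called lower in K700E with H3B-8800 against DMSO in each of 9 gene lists (red) and over all such exons (grey), with the counts beside each bar. The shares run from 8.997% in spliceosome and splicing regulator genes to 23.1% in apoptosis regulators, and the share over all exons is 17.1%. Exons not tested count as not called, and 112 of 389 were tested in the splicing list against 20212 of 43625 over all.

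Within a gene, the response differed from exon to exon. Of 6428 genes with at least 2 members, 3404 had both called and uncalled members, 72 had every member called lower and 2952 had none. UBR4, a giant ubiquitin ligase gene, had the most members, 60, of which 10 were called lower and 36 changed by less than 1 point, with differences from -48.4 to 0.22 points. MDN1, which encodes a giant ATPase of ribosome assembly, had 59 members, of which 10 were called lower and 42 changed by less than 1 point, with differences from -44.4 to 0.31 points. VPS13C, a lipid transfer protein gene, had 53 members, of which 2 were called lower, with differences from -51.96 to 4.33 points. These 2 had means of 39.9% and 60.1% in K700E with H3B-8800 and 91.8% and 99.4% with DMSO. The called exons of UBR4 and MDN1 were scattered along the transcripts: the lowest treated means stood at UBR4 exon 81 with 50.6%, against 99% with DMSO, and at MDN1 exon 15 with 54.8%, against 99.1% with DMSO.

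**Figure D4:**
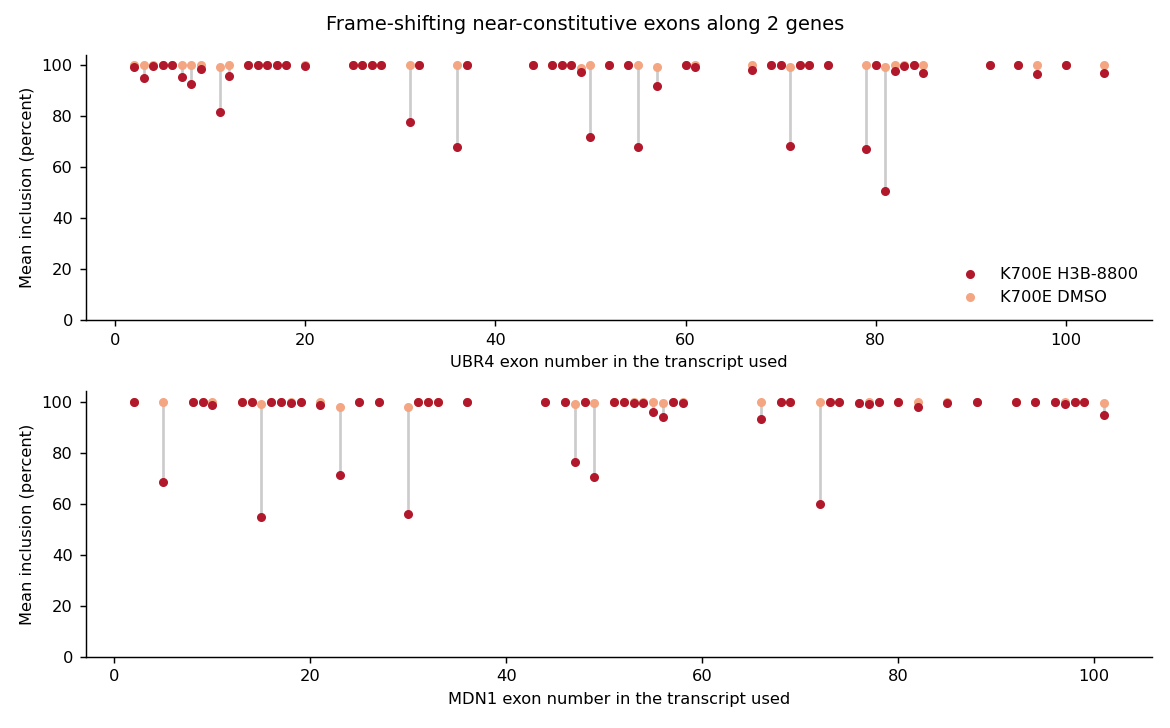
Mean inclusion (percent, n = 3) in K700E with H3B-8800 (dark) and DMSO (light) at 55 frame-shifting exons of UBR4 (top) and 54 of MDN1 (bottom), by exon number in 1 annotated transcript of each gene, with grey lines joining the means of an exon. In treated cells 8 of the UBR4 exons and 7 of the MDN1 exons lie below 90%, and the others at or above it.

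The share of members called lower was set against features of the exons, of which length entered the rule through its limits and its frame. It was highest in short exons, with 992 of 3569 (27.8%) at 28 to 59 nt, 2065 of 9116 (22.7%) at 60 to 89 nt, 1927 of 10837 (17.8%) at 90 to 119 nt, 1273 of 8910 (14.3%) at 120 to 149 nt, 688 of 5976 (11.5%) at 150 to 179 nt and 522 of 5217 (10.01%) at 180 nt or more. Frame-keeping exons ran the same way, with 29.1% in the shortest class and 8.86% in the longest. The mean change in members was -9.40 points in the shortest class and -3.20 points in the longest. The exons that dropped by 50 points or more numbered 130 at 28 to 59 nt and 25 at 180 nt or more.

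GC content, intron length and splice site bases showed smaller gaps. By quartile of exon GC content the share called was 18.0% at the lowest GC and between 15.6% and 16.2% in the others. By quartile of upstream intron length it was 17.01%, 15.1%, 15.9% and 18.3% from short to long, and by downstream intron length 17.8%, 15.2%, 15.3% and 18.9%. Exons whose last 2 bases are AG were called in 15.6% and others in 17.3%. By length class, members with 1 base over were called in 17.1% and those with 2 over in 17.2%, and by codon phase the shares were 16.4%, 16.2% and 16.6%. Depth moved with the result too: by quartile of mean reads the share called was 19.6%, 19.4%, 17.5% and 11.97% from few to many reads, and the part of expression in it was not tested.

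The share called is given by untreated level as a description, since the level is that of WT, which chose the members, while the drop is that of K700E. Of the members at 95% to 97% in WT DMSO, 1210 of 1884 (64.2%) were called lower in K700E, against 1613 of 3682 (43.8%) at 98% to 99%, 1368 of 8271 (16.5%) at 99.5% to 99.9% and 1014 of 23755 (4.27%) at 99.9% or more. The filter on mean inclusion bears on these shares: 1878 of the 1884 members in the lowest class were tested, and 4846 of the 23755 in the highest. Among the 17620 members with a mean of 500 reads or more the shares were 63.2% in the lowest of these classes and 2.13% in the highest. Even so, 861 of the 20713 members at 100% in each WT DMSO sample were called lower. At the edge of the rule, just inside 95% stood exons of ABHD12, with 59.3% ± 7.27 in treated and 95.2% ± 2.64 in untreated K700E, and TREM1, with 88.2% ± 3.74 and 92.2% ± 2.02. Just outside stood exons of AMMECR1L, with 50.7% ± 2.73 and 92.7% ± 1.20, and MFSD1, with 76.1% ± 2.75 and 96.2% ± 0.174.

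**Figure D5:**
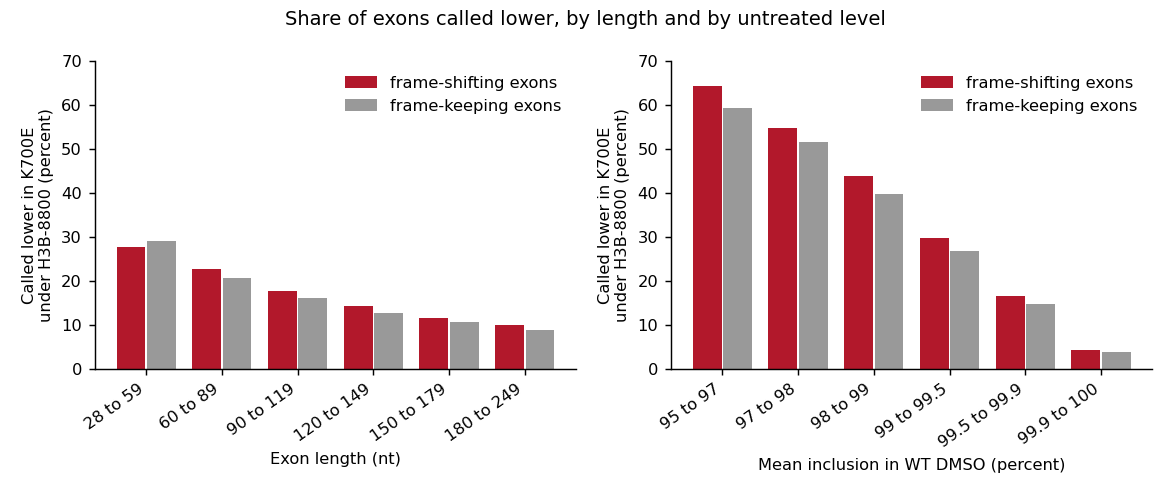
Share (percent) of frame-shifting (red) and frame-keeping (grey) near-constitutive exons called lower in K700E with H3B-8800, by exon length in nt (left) and by mean inclusion in WT DMSO in percent (right). The frame-shifting share falls from 27.8% to 10.01% with length and from 64.2% to 4.27% across the classes of untreated level, where 4846 of 23755 frame-shifting exons in the highest class were tested, and frame-keeping exons run alongside.

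Frame-shifting and frame-keeping exons were compared directly. Mean inclusion of the members minus that of the frame-keeping exons was -0.65, -0.59 and -0.48 points in K700E with H3B-8800, against -0.02, -0.00 and -0.02 points with DMSO. The WT samples had -0.64, -0.64 and -0.69 points with H3B-8800. All treated samples lay below all untreated ones, and the gap changed by -0.56 points in K700E (exact two-sided permutation p = 0.1, the smallest possible). It did not differ between genotypes beyond the samples' spread, at -0.571 ± 0.088 in K700E and -0.655 ± 0.028 in WT with H3B-8800 (exact p = 0.3). In calls, 17.1% of the members and 15.5% of the frame-keeping exons (4134 of 26651) were lower in K700E, and among tested exons 36.9% and 35.3%.

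By the fate of the skipped reading frame, 5635 of 32973 members (17.1%) with a stop more than 50 nt before the last junction were called lower. Where the early stop came later, 458 of 3880 (11.8%) were called, and where the stop lay beyond the normal one, 123 of 958 (12.8%). Exons with no match in the annotation were called most, in 874 of 3293 (26.5%), against 6240 of 37989 coding exons (16.4%). No share among tested exons was computed for these classes of fate and annotation. The part of the filter on mean inclusion and of the kind of exon row in their gaps was not tested. Exon rows that the table marks ANN were called in 236 of 9786 (2.41%), while the 4 other kinds of exon row (S, C1, C2 and C3) had 20.3% to 27.2%. Only 1162 of the 9786 ANN rows were tested, and untested rows count as not called. Among tested rows the share was 20.3% for ANN and 35.7% to 41.6% for the other kinds.

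The introns beside the members were a second readout that the rule did not use. Of 30757 tested introns next to a member, 9459 (30.8%) were retained more and 94 (0.306%) less in K700E with H3B-8800 than with DMSO. The background over all tested introns was 30.1% retained more and 0.341% retained less, so introns beside members stood near it. Introns upstream of members called lower were retained more in 1593 of 4108 (38.8%), and those upstream of members not called in 4291 of 15251 (28.1%). Downstream the counts were 1618 of 4409 (36.7%) and 5127 of 17139 (29.9%). Beside members that dropped by 50 points or more, 141 of 418 upstream introns (33.7%) and 142 of 422 downstream introns (33.65%) were retained more. Of 3125 called members with both introns tested, 1489 (47.6%) had neither intron called and 988 (31.6%) had both.

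The mean retention of introns upstream of called members was 11.8%, 12.2% and 10.3% in K700E with H3B-8800, against 2.62%, 2.56% and 2.71% with DMSO. Upstream of members not called it was 7.37%, 7.74% and 6.47% with H3B-8800, against 1.97%, 1.96% and 2.03% with DMSO. Retention was therefore higher with the drug beside both kinds of member. At single exons the 2 events came apart: beside the NCAPD3 exon retention averaged 0.15% upstream and 0.10% downstream with H3B-8800, against 0.52% and 0.12% with DMSO, while beside PTPN6 exon 11 it averaged 13.9% and 14.2% with H3B-8800, against 2.87% and 3.93% with DMSO.

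Spliced reads per gene were counted over introns that adjoin no member and no frame-keeping exon of the rule, so that skipping such an exon does not itself lower the sum. Of 3887 genes with members and enough such reads, 1569 were called lower and 310 higher in K700E with H3B-8800 against DMSO at an adjusted p under 0.05. Over all tested genes the shares were 38% lower and 7.81% higher. The median log2 change over all tested genes was -0.41 when reads were scaled by the library total and 0.00 when scaled by median ratios, so these changes have a direction only relative to that median. Scaled by median ratios, 875 of the 3887 member genes were lower and 929 higher, against 1327 and 1439 of all 6004 tested genes. The member genes thus stood near the background.

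Relative to the median of all tested genes, the 2000 genes whose members all dropped by less than 10 points stood at 0.14 on the log2 scale. Genes whose largest member drop was 10 to 30 points stood at -0.12 (n = 1103), those with 30 to 50 points at -0.11 (n = 520) and those with more at -0.12 (n = 264). The 3 classes with a dropped member thus lay below the class without one and close to each other. In 333 genes a frame-shifting exon dropped by 30 points or more and no frame-keeping exon by 10, and they stood at -0.11. In 146 genes the reverse held, and they stood at 0.29. Genes with no drop of 10 points or more in either kind of exon stood at 0.14 (n = 1871). The values were -0.14, 0.28 and 0.12 with all introns of a gene counted. The part of exon number, depth and retention of the counted introns in these gaps was not tested. In bulk RNA fewer transcripts per cell and a changed make-up of the cells cannot be told apart.

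The last comparison asked whether the K700E clones differed from WT under the drug. Limma called 5 members higher and 5 lower in K700E, against 0.0377% and 0.0314% of all tested exons, and at an unadjusted p under 0.05 it had 1160 higher and 702 lower. A difference of 10 points or more was reached by 676 members upward and 238 downward. For these unadjusted counts no share over all tested exons was computed, so no trait of the members is read from them. TFRC, the transferrin receptor, had its 103 nt exon 6 of 19 (chr3:196071396-196071498) at 65.2%, 75.2% and 73.1% in K700E and 51.1%, 51.5% and 46.6% in WT with H3B-8800 (21.5 points, adjusted p = 0.0143), and at 97.5% ± 0.251 and 96.3% ± 0.3 with DMSO. DLST, an enzyme subunit of the citric acid cycle, had its 98 nt exon 10 of 15 at 70.7%, 74.6% and 79.9% in K700E and 52.6%, 49.5% and 50.8% in WT (24.1 points, adjusted p = 0.0142). The genotypes did not overlap at either exon under the drug.

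SLC35F2, a solute carrier, had an exon without annotation match at 43.7% ± 2.04 in K700E and 19.2% ± 2.99 in WT with H3B-8800, and OSBPL3, a lipid-binding protein, one at 93.0% ± 2.08 and 78.4% ± 3.67. The fifth, an exon of the iron transporter SLC11A2 that was named after its values were seen, had 100% ± 0 and 89.7% ± 2.78. Lower in K700E were exons of RASA2, a Ras GTPase-activating protein, with 58.3%, 70.6% and 74.0% in K700E and 100%, 95.5% and 100% in WT with H3B-8800 (-30.8 points, adjusted p = 0.0130), and PEX3, a peroxisome assembly factor, with 64.7%, 66.2% and 68.4% in K700E and 93.3%, 94.3% and 87.1% in WT (-25.1 points, adjusted p = 0.0386). EML3, a microtubule-binding protein, averaged 74.2% ± 4.29 in K700E and 91.1% ± 2.16 in WT, AFF4, of the super elongation complex, 78.7% ± 4.13 and 93.1% ± 0.795, and CD2BP2, also named after its values were seen, 85.8% ± 4.44 and 99.03% ± 0.916. RASA2, PEX3 and SLC11A2 rest on as few as 27, 29 and 43 reads in a sample. The 100% of SLC11A2 in treated K700E allows up to 6.67% skipping (3 reads). Each of these 10 calls was lost in at least 4 of the 14 or 15 other settings, and leaving out single libraries gave between 2 and 5 calls in each direction, of which 0 to 3 of the higher and 0 to 2 of the lower ones were shared with these 10. No lower call was shared without K700E H3B-8800 replicate 1 or 2, and no higher call without K700E H3B-8800 replicate 3 or WT H3B-8800 replicate 3.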

How the data were processed

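RNA of 12 MEC1 samples was poly(A)-selected and sequenced in stranded paired-end libraries, 3 runs each, per the labels' protocols. The submitters' processing notes name cutadapt 2.4 and build hg38, whereas no aligner or event caller is named there. The authors deposited inclusion levels in percent for 721551 events, each a ratio within 1 sample, beside text with corrected inclusion and exclusion reads. In 4598029 values with enough reads, 0 differed by more than 1 point from the ratio of those reads. Another 36 columns with single runs were not used. No molecular identifiers were recorded, so limits of 3 reads cover counting error only.

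The members and gene lists were chosen with earlier results of these data known. The log2 of inclusion plus 0.5 over exclusion plus 0.5 reads was fitted with limma 3.58.1 (R 4.3.3, trend on reads) over the 9 samples not used by the rule, as 3 groups, with Benjamini-Hochberg adjustment. The fit was tested on simulated data. Junction reads per gene were tested on log2 RPM of junction reads, with genes at a mean of 50 reads or more. Exact permutation tests enumerated every assignment of the samples to the groups, with Python 3.11.15 and numpy 2.4.6. Exons were matched to GENCODE v29. Genes were named by rule, 1 exon each: the 10 largest called drops, the 6 with most reads that stayed, 2 large drops and the smallest change per list, 4 called each way between genotypes, 2 on either side of the 95% threshold, and the 3 genes with most members. P-values measure the spread between clones and cultures.

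The labels give the same clone or culture to a number in both treatments, so the numbers pair the samples, and deviations of same-numbered samples correlated at 0.043, 0.050 and 0.018 across events. Alternatives were a block on this number, other samples, filters, pseudocount, weights, scales and thresholds, and leaving out each replicate.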

Additional observations from a re-analysis of the deposited data

How the results depend on the processing

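Members called lower in K700E with H3B-8800 numbered 7465 with a replicate block on the clone (7462 shared with the 7467), 7348 to 7607 without single replicates, and 4011 at a difference of 20 points; members called higher numbered 0 to 1 without single replicates. Introns retained more beside members numbered 8908 to 10037 and retained less 81 to 99 without single replicates; at 20 points they were 4742 and 28, and 143 were retained less with unbalanced introns kept.

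Between genotypes under the drug, the 5 higher and 5 lower calls were unstable. A replicate block on the number gave 3 higher and 2 lower, although between genotypes that number joins different lines. Calls numbered 10 higher and 8 lower with 12 samples, 12 and 9 with a pseudocount of 1, and 3 and 2 at 20 points. They numbered 292 and 65 on percentage points and 70 and 17 with read weights. Lower calls were 3 with 50 reads and 3 with 6 samples, and higher calls 3 without the filter on mean inclusion. Without single replicates both ranged from 2 to 5, sharing 0 to 3 higher and 0 to 2 lower calls with the 5 and 5 of the main fit.

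The change of the median in K700E was -0.80 to -0.76 without single replicates, -0.84 with 50 reads, -0.46 for members at 98% or more, and -5.64 as a mean. The change of the frame gap was -0.60 to -0.52 without single replicates, -0.46 at 98% or more and -0.20 as a median. Spliced reads gave 1015 lower member genes with a higher read minimum, and 2691 lower and 1102 higher with all introns. Median ratios gave 875 lower and 929 higher (median 0.00843, a reversed sign), and the replicate block 2083 lower and 552 higher. Without single replicates 1286 to 1622 were lower and 222 to 296 higher. The causes were not tested. With 3 samples a group, exact tests cannot go below p = 0.1, and the read minimum favours highly expressed genes.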
